A study of Mus musculus with 32 samples.

Results

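The variable segments of the immunoglobulin kappa light chain were taken as the genes whose symbol is Igkv followed by a digit, and 160 of the 55291 symbols in the count table met this rule. All 160 lie on chromosome 6 of GRCm38 and fall into 20 families by the number after Igkv. The annotation lists 100 of them as genes and 60 as pseudogenes. In the 32 libraries they held 1661595 counts together, of which 13354 belonged to pseudogenes. A count was present in every library for 62 segments and in some of the libraries for 69, and 29 segments, each of them a pseudogene, had no count in any library.

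The libraries were made from total RNA of whole colon and of colon tumors of C57BL/6 mice, wild type (WT) or with constitutive loss of Dnase1l3 (KO), a gene for a secreted DNase. The question of the design was what loss of Dnase1l3 changes in the colon before, during and after colitis and in the tumors that follow. Mice were 3 months old when injected with azoxymethane (AOM, 8 mg/kg), a colon carcinogen, and were then given dextran sulfate sodium (DSS, 2.5%) in drinking water, which injures the epithelium. Reads were single-end, 75 nt long. D0 colon came from mice that had received neither AOM nor DSS, 4 WT and 4 KO. D19 colon came from mice that had received AOM and 1 cycle of DSS with 5 days of recovery, 4 WT and 4 KO. D80 colon was taken 24 days after the third cycle, again from 4 WT and 4 KO mice, and tumors were taken from 5 WT and 3 KO mice treated in the same way. Every mouse of the treated groups had received both agents, so AOM and DSS cannot be told apart. There was no untreated colon at D19 or D80, so time and age cannot be told apart from treatment. Libraries are named by genotype, stage and the number of the mouse in the labels.

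A B cell makes its kappa light chain by joining a single variable segment to a joining segment, Igkj, and only the joined segment is strongly transcribed, spliced to the constant region Igkc. The set of segments in a tissue is therefore a readout of which B-lineage cells are present, and a clone of antibody-secreting plasma cells can lift its own segment alone. In the colon most such cells are plasma cells of the lamina propria that secrete dimeric IgA, and B cells sit in lymphoid follicles. Bulk RNA does not separate fewer cells from less RNA per cell, nor a large clone from many small ones, and neither was told apart here.

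The segments carry the sequences that the counts depend on. Igkv1-110 (chr6:68270955-68271267, plus strand, ENSMUSG00000093861) and Igkv1-117 (chr6:68121515-68121827, plus strand, ENSMUSG00000094335) held the largest mean shares, and the last 300 of the 313 bases of their variable exons are shown because the exons are 96.8% identical. The 10 bases that differ are in capitals.

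Igkv1-110: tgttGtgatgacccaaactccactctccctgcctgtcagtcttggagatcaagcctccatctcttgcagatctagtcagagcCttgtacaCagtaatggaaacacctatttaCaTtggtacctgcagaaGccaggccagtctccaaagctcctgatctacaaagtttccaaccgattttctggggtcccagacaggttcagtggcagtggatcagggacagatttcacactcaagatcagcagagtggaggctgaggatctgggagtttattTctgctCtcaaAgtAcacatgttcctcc
Igkv1-117: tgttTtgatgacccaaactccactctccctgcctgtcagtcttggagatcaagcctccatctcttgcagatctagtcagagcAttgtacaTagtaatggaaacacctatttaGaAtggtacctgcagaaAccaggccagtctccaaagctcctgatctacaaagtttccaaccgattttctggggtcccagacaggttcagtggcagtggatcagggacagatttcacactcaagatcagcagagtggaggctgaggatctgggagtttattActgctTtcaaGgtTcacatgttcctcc

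The longest identical stretch between both was 142 bases, longer than a read of 75 bases. Of the 100 segments listed as genes, 63 shared at least 1 window of 75 bases with another segment, and 37 shared none. For Igkv1-110 and Igkv1-117 the share of such windows was 31.2% and 30.9%, so their separate values are uncertain to that extent, since the handling of reads with several matches is not given in the sources used here. Igkv15-103 had 0% of its windows in common with another segment. The ends of the variable exons are shown for 5 segments that stood far above their median share in single mice and to which the results below return, with the bases after the conserved cysteine codon, where the third complementarity-determining region begins, in capitals. Positions are those of the variable exon, and sequences are from the GENCODE M21 transcripts on GRCm38, written in the direction of the segment.

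Igkv15-103 (chr6:68437628-68437925, plus strand): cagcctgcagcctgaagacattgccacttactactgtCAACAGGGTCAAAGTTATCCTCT
Igkv12-44 (chr6:69814631-69814928, minus strand): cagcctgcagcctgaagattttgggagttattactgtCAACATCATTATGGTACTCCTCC
Igkv7-33 (chr6:70058632-70058947, minus strand): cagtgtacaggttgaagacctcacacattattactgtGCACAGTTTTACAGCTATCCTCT
Igkv1-122 (chr6:68017176-68017488, plus strand): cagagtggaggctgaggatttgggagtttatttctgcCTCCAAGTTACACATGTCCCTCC
Igkv4-55 (chr6:69607275-69607577, minus strand): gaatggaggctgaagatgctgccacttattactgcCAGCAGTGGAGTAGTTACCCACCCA

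Total counts per library ranged from 18951121 to 47623288, and Igkv counts from 2028 to 235794. Dnase1l3 ranged from 1.81 to 10.2 CPM (the count divided by the TMM-adjusted library total) in WT and from 0.702 to 11.8 CPM in KO libraries. It was not called lower in KO at any stage, and the highest of the 32 libraries was a KO D80 colon. At D19 the KO libraries, at 0.702 to 6.77 CPM, lay below the WT libraries, at 7.22 to 8.69 CPM (log2 fold change -1.07). No gene was called in that comparison. WT and KO ranges overlapped at the other stages. From D0 to D19 Dnase1l3 was called higher in WT (1.54) and not in KO (0.23). The part of the gene missing in the KO allele is not given, so these counts do not check the genotype labels. Libraries KO D19 811, WT D80 581 and KO tumor 544 stood apart from the rest of their stage, with 7.66, 5.33 and 19.98 counts of heavy chain variable segments per 100 Igkv counts, against 48.7 to 93.8, 60.3 to 82.5 and 43.7 to 54.7 in the other 7 libraries of the same stage. Their mitochondrially encoded share was 10.6%, 15.1% and 8.02%, against 5.09 to 7.04%, 4.49 to 5.91% and 1.53 to 4.21%. The part that this played in the values below was not tested, and the sums, effective numbers and counts of calls that changed most without them are given below.

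The summed level of Igkv segments was low in untreated colon, higher at D19, highest at D80 and low again in tumors, in both genotypes alike. At D0 the WT libraries 851, 918, 920 and 927 held 162, 137, 91.7 and 334 CPM, and the KO libraries 852, 853, 915 and 872 held 196, 304, 217 and 79.0 CPM. At D19 the WT libraries 685, 686, 805 and 812 held 1744, 1338, 866 and 281 CPM, and the KO libraries 811, 813, 803 and 804 held 936, 374, 884 and 688 CPM. WT 812 at D19 lay within the D0 range of its genotype, while each KO library at D19 lay above each KO library at D0. At D80 the WT libraries 581, 541, 542 and 555 held 6247, 4536, 3867 and 2719 CPM, and the KO libraries 527, 535, 543 and 544 held 5369, 4978, 2144 and 4111 CPM. In tumors the WT mice 534, 541, 542, 579 and 555 had 624, 270, 654, 107 and 949 CPM, and the KO mice 527, 543 and 544 had 506, 990 and 143 CPM. D80 colon did not overlap D0 colon or tumors in either genotype. Genes of other tissue also differed by stage. The summed CPM of 4 distal-gut Hox genes at D0 was 46.1 to 98.1 in WT and 44.0 to 203 in KO. It was 153 to 202 and 111 to 163 at D19, and 114 to 238 and 110 to 161 at D80. The sum of 6 smooth muscle genes was 4523 to 12002 at D0, 2685 to 5945 at D19 and 2087 to 4653 at D80. Their part in the Igkv levels was not tested.

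**Figure D1:**
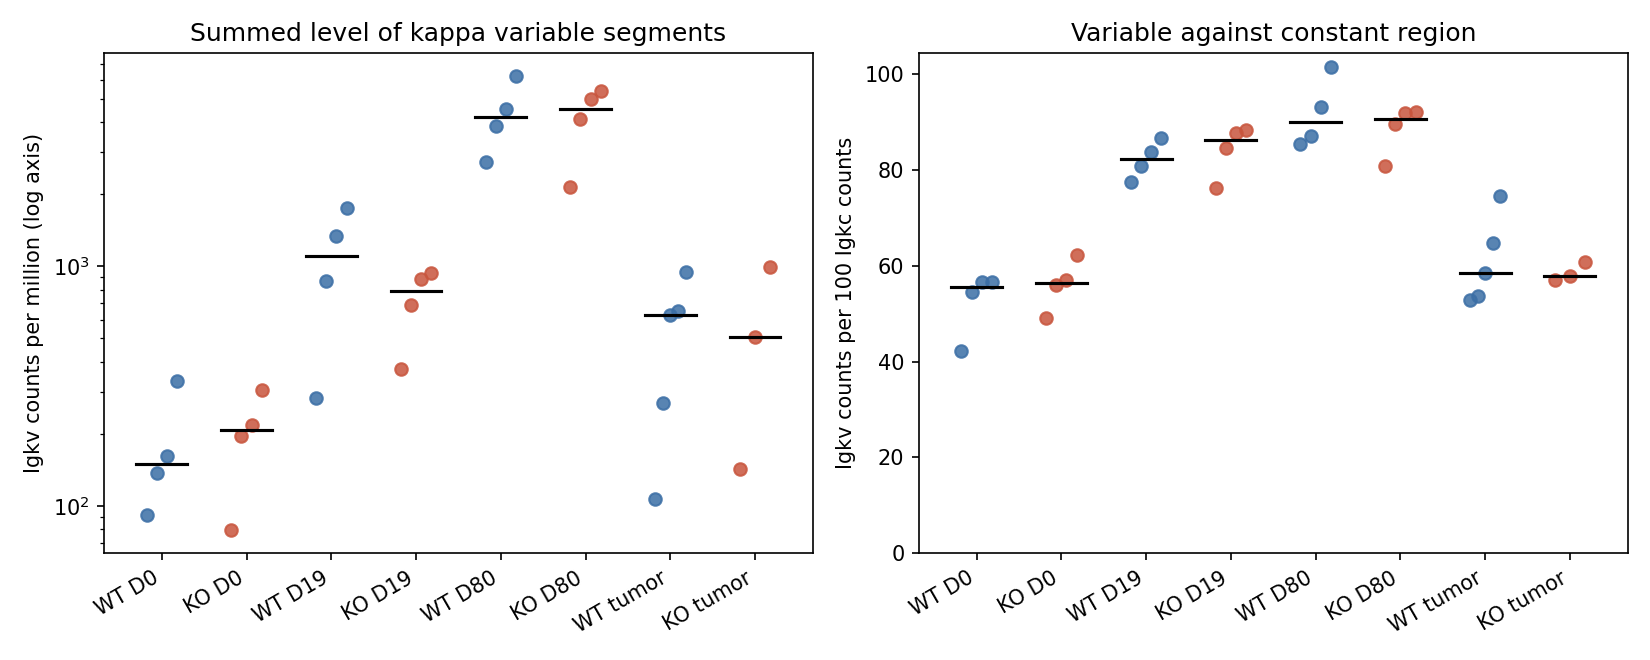
Left, summed CPM of the 160 segments (log axis); right, Igkv counts per 100 Igkc counts, for each group on the horizontal axis. Each point is 1 library, blue for WT and red for Dnase1l3-KO, and the bar is the median; the D80 libraries lie between 2144 and 6247 CPM, above the D0 libraries and the tumors.

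The difference of KO from WT in mean log2 CPM was 0.15 at D0 (pooled SD 0.80), -0.35 at D19 (pooled SD 0.93), -0.08 at D80 (pooled SD 0.55) and 0.03 in tumors (pooled SD 1.32). Each lay below the spread between mice, and WT and KO libraries overlapped at each stage. The difference was 0.11 at D80 without WT D80 581, which turned its sign, and 0.80 in tumors without KO tumor 544. From D0 to D19 the sum was higher by 2.43 in WT (pooled SD 0.99) and 1.93 in KO (pooled SD 0.73), and from D0 to D80 by 4.69 in WT (pooled SD 0.65) and 4.45 in KO (pooled SD 0.73). Tumors differed from D80 colon by -3.35 in WT (pooled SD 1.01) and -3.24 in KO (pooled SD 1.01). These are sums over a chosen set, so no p-value is given. The labels carry a prefix before the mouse number whose meaning is not given. No prefix was shared between any of D0, D19 and D80, so stage and prefix cannot be told apart. Within prefix 115 at D19 the WT library held 866 CPM against 688 to 884 in KO, while within prefix 116 the WT library held 281 CPM against 374 to 936. The WT libraries at 1744 and 1338 CPM were of another prefix with no KO library. Within prefix 76, WT D80 colons held 3867 to 4536 CPM and KO D80 colons 2144 to 4111 CPM, and WT tumors held 270 to 654 CPM and KO tumors 143 to 990 CPM. Within prefix 123 at D0 the WT library held 162 CPM against 196 to 304 in KO, and within prefix 134 the WT libraries held 91.7 to 137 CPM against 217 in KO.

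Igkc, the constant region joined to each of these segments, moved in the same order of stages. Its log2 fold change from D0 to D80 was 3.78 in WT (SE 0.46, adjusted p = 0.00164) and 3.73 in KO (SE 0.42, adjusted p = 7.65e-05) in edgeR's quasi-likelihood test over all genes. Jchain, which links IgA into dimers, rose by 3.55 in WT and 3.003 in KO between the same stages. Igkv counts per 100 Igkc counts were 42.2 to 62.3 at D0, 76.4 to 88.3 at D19, 80.9 to 101 at D80 and 52.9 to 74.6 in tumors, so the ranges of D0 and tumors lay below those of D19 and D80. Segments and constant region differ in length, so this is a ratio of counts, not of molecules.

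Segment usage was uneven along the locus. Of the 10 leading segments of a library, a pair of libraries shared 2 to 9 (median 5). Over the 32 libraries, each weighted equally, Igkv1-110 held 7.30% of Igkv counts and Igkv1-117 held 7.11%, followed by Igkv10-96 (4.21%), Igkv4-59 (3.74%), Igkv15-103 (3.51%), Igkv6-15 (3.31%), Igkv12-44 (2.90%), Igkv10-94 (2.76%), Igkv4-55 (2.55%) and Igkv8-30 (2.51%). Scaled by exon length the same 10 segments led, with Igkv1-110 at 6.78% and Igkv1-117 at 6.55%. At least 1% of counts on average went to 35 of the 160 segments. By family, Igkv4 with 33 segments held 23.6% and Igkv1 with 13 segments held 17.3%. Pseudogenes held 0.409 to 1.48% of a library's Igkv counts.

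**Figure D2:**
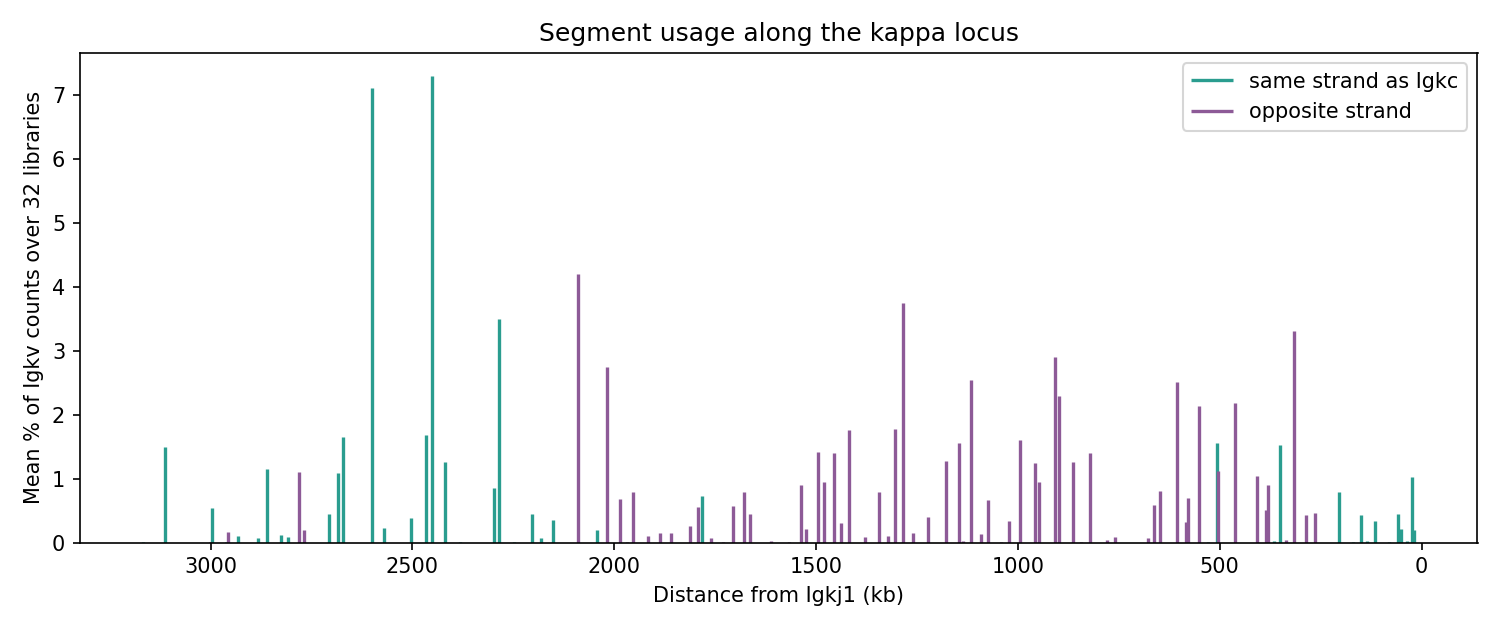
Mean share of Igkv counts over the 32 libraries (%, vertical axis) against the distance of the segment from Igkj1 (kb, horizontal axis, reversed). Each vertical line is 1 segment with a count, coloured by strand. Igkv1-110 (7.30%) and Igkv1-117 (7.11%) stand at 2451.7 and 2601.1 kb, among segments with smaller shares.

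Igkv1-110 and Igkv1-117 lie 2451.7 and 2601.1 kb from Igkj1, the joining segment farthest from Igkc, and Igkv6-15 lies 315.8 kb from it. Segments more than 1500 kb from Igkj1 together held 29.0 to 66.0% of Igkv counts per library, with group medians from 39.5% in WT D19 to 49.4% in KO D19. Segments on the plus strand, which join by deletion, held 27.4 to 61.1%. The library at the top of both ranges was WT D0 920, where Igkv15-103 led. WT and KO ranges overlapped at each stage for the distance measure, and at D0, D19 and D80 for the strand measure. In tumors the plus-strand share was 35.4 to 43.8% in WT and 31.7 to 35.2% in KO. These ranges did not overlap, and no test was made, as the measure sums a chosen set.

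The number of segments with a count was 80 to 98 at D0 in WT, 87 to 98 in KO, and 107 to 116 and 106 to 117 at D80. The lowest of the 32 libraries held 2028 Igkv counts. At that depth the expected number at D0 was 80 to 87.9 in WT and 74.9 to 88.6 in KO. At D80 it was 82.7 to 88.8 in WT and 86.4 to 90.7 in KO. These ranges of D0 and D80 overlapped in each genotype, and the part of depth in the numbers was not tested. The effective number of segments is the number of equally used segments that would give the same Shannon entropy. At D0 it was 26.7, 45.5, 16.0 and 45.0 in WT and 35.4, 22.9, 57.9 and 37.5 in KO, and at D19 it was 44.8, 45.2, 44.7 and 30.1 in WT and 39.7, 43.2, 30.9 and 37.4 in KO. At D80 it was 36.8, 50.8, 52.2 and 48.2 in WT and 49.2, 47.4, 49.4 and 58.6 in KO. Both the most uneven library (WT D0 920) and one of the most even (KO D0 915) came from untreated colon. Tumors had 49.3, 42.0, 51.6, 40.3 and 42.1 in WT and 46.4, 34.1 and 56.5 in KO.

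**Figure D3:**
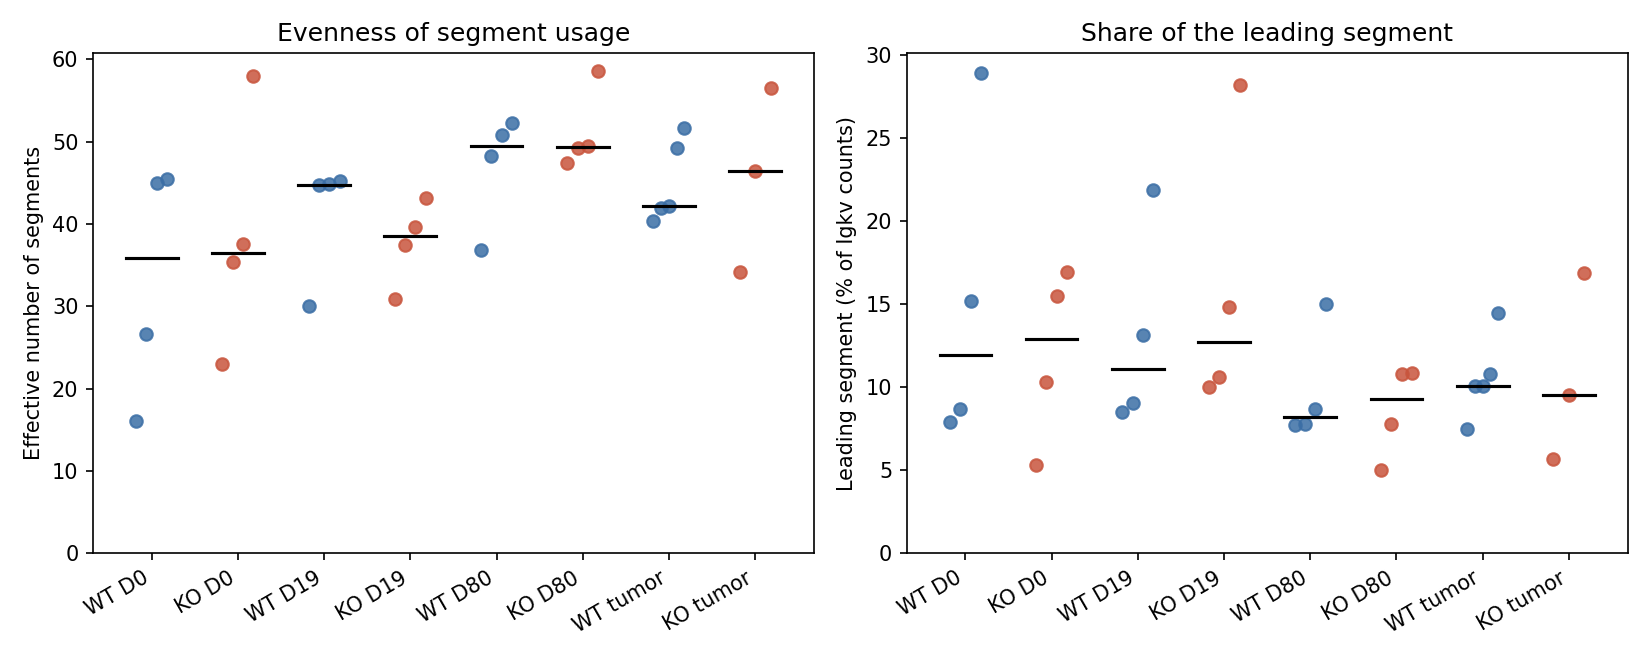
Left, effective number of segments; right, share of the leading segment (% of Igkv counts), for each group on the horizontal axis. Points are libraries, blue for WT and red for Dnase1l3-KO, and bars are medians; the effective number ranges from 16.0 to 57.9 at D0 and from 36.8 to 58.6 at D80.

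KO differed from WT in the mean effective number by 5.16 at D0 (pooled SD 14.5), -3.43 at D19 (pooled SD 6.41), 4.18 at D80 (pooled SD 6.10) and 0.64 in tumors (pooled SD 7.67), each within the spread between mice. Without KO tumor 544 the tumor difference was -4.78, without WT D80 581 the D80 difference was 0.783, and without KO D0 915 the D0 difference was -1.34. From D0 to D80 the mean was higher by 13.7 in WT (pooled SD 11.3) and 12.7 in KO (pooled SD 10.9), and the libraries of both stages overlapped in each genotype. Tumors differed from D80 colon by -1.95 in WT (pooled SD 5.95) and -5.49 in KO (pooled SD 8.10), and without WT D80 581 and KO tumor 544 by -5.34 and -10.9. The segments that together made 50% of Igkv counts numbered 3 in WT D0 920 and 18 in KO D80 544, the lowest and highest values.

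Which segment led differed between mice: 15 different segments were the largest of a library. Igkv1-117 led 9 libraries and Igkv1-110 led 5, Igkv8-30 led 3, Igkv12-44, Igkv15-103 and Igkv4-55 led 2 each, and 9 other segments led 1 library each. At D80 Igkv1-117 led 6 of 8 colons, with 5.01 to 10.9% of counts, and Igkv1-110 led WT D80 581 with 14.99%. At D0 no segment led more than 1 library.

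**Figure D4:**
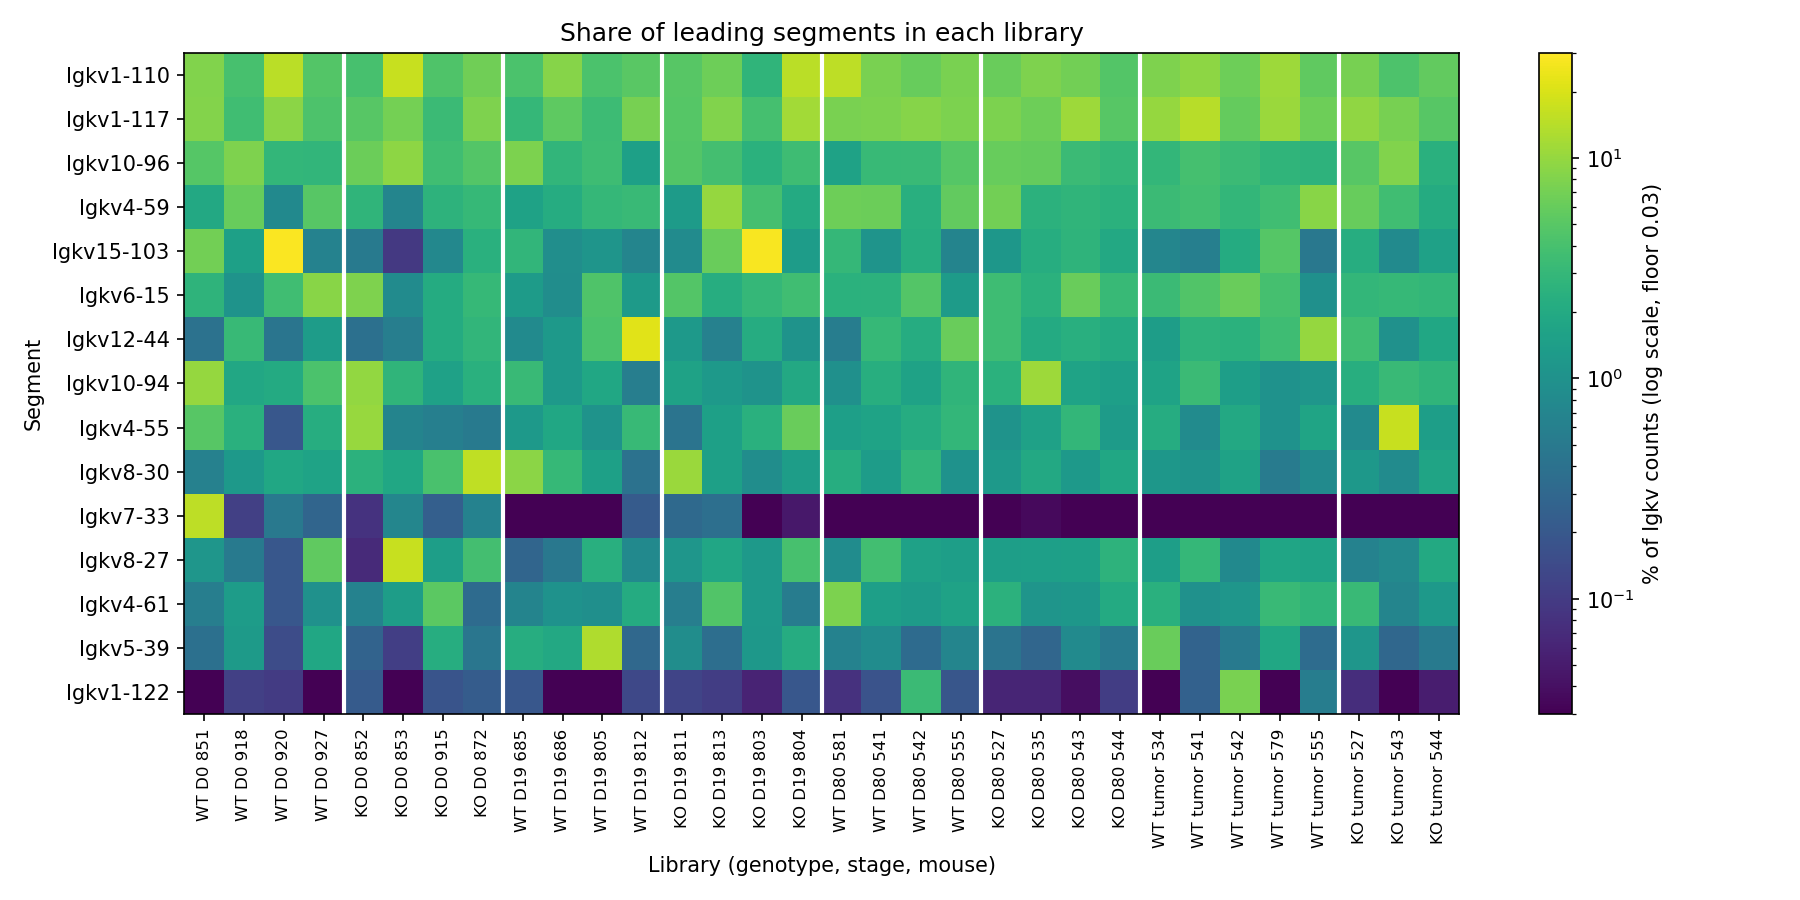
Share of Igkv counts (%, log colour scale with a floor of 0.03%) of 15 segments (vertical axis) in each of the 32 libraries (horizontal axis, by genotype, stage and mouse). Igkv1-110 and Igkv1-117 are high in most libraries, while Igkv15-103 reaches 28.9% in WT D0 920 and 28.2% in KO D19 803, and Igkv7-33 reaches 15.2% in WT D0 851.

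Igkv15-103 was the clearest such case, and no window of 75 bases is shared with another segment (its sequence is given above). It held 28.9% of Igkv counts in WT D0 920 (587 of 2028, 95% Clopper-Pearson interval 27.0 to 31.0%) and 28.2% in KO D19 803 (interval 27.8 to 28.6%), against a median of 1.44% over the 32 libraries. The intervals cover counting error only. Igkv7-33 held 15.2% in WT D0 851 (interval 14.0 to 16.4%), against a median of 0.0146%. Igkv12-44 held 21.9% in WT D19 812 (interval 21.2 to 22.6%), the D19 library with the lowest Igkv level. In KO mice, Igkv8-27 held 17.0% in D0 853, Igkv8-30 held 15.5% in D0 872 and Igkv4-55 held 16.9% in tumor 543 (interval 16.5 to 17.3%). A segment at 5 or more times its median share and at 3% or more of counts, a rule chosen after the values were seen, occurred 40 times, in 23 of the 32 libraries and for 25 different segments. These cases numbered 7 in WT and 6 in KO at D0, 8 and 7 at D19, 4 and 2 at D80, and 3 and 3 in tumors. The numbers were not tested.

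Between WT and KO no segment was called by edgeR at D0, D19 or D80. A call required more than a 2-fold change together with a Benjamini-Hochberg adjusted p below 0.05 over all genes in edgeR's quasi-likelihood test. At D0, 61 of the 160 segments passed the filter on low counts and 99 were not tested, and of all 18175 genes tested 0% were called in either direction. At D19, 88 segments were tested and 72 were not, with 0% of 19545 genes called, and at D80, 99 were tested and 61 were not, with 0% of 18899 genes called. At a nominal p under 0.05 stood 8 of the 61 tested segments at D0, 12 of 88 at D19 and 2 of 99 at D80, where 9.63%, 11.3% and 5.55% of all genes tested did. DESeq2 called 2 of the 160 segments at D0, 7 of 160 at D19 and 0 at D80. By that tool 0.153%, 0.892% and 0.1% of all genes were called in either direction. At D0 Igkv15-103 stood at 11.1, 2.09, 26.6 and 2.16 CPM in WT and 1.02, 0.291, 1.65 and 1.88 CPM in KO. It differed by -3.08 on the log2 scale (adjusted p = 0.443, edgeR), the lowest log2 fold change of the 61 tested segments. Its WT libraries lay above its KO libraries by a narrow margin, 2.09 against 1.88 CPM at the closest. How many other segments separated in this way was not counted.

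In tumors, where the study's threshold is a nominal p under 0.01 with a fold change over 2, 1 segment was lower in KO and none was higher, 85 were tested without a call and 74 were not tested. Of all 18961 genes tested, 0.264% were called higher and 0.0422% lower by the same threshold, and 0% by the adjusted one. The segment was Igkv14-130, with 18, 12, 10, 2 and 39 counts in WT tumors 534, 541, 542, 579 and 555 and 0 counts in each KO tumor. Against a floor of 3 counts per library it was at least 4.67-fold lower in KO (adjusted p = 0.699, edgeR). The segment passed the filter on low counts through the WT tumors, where it was higher, so its call is a description of these libraries, and without WT tumor 555 the bound was 3.17-fold. The number of called segments was 3 without WT tumor 541 and 2 without KO tumor 527 or 544. At a nominal p under 0.05 stood 5 segments, where 6.61% of all genes tested did. Igkc (0.18), Jchain (0.10), Igha (0.14) and Ighm (-0.79) also had no call between KO and WT tumors.

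From D0 to D19 segments rose in both genotypes, with more calls in WT than in KO, and the test of the difference itself called none of them. In WT 46 of 160 segments rose and 1 fell, 30 were tested without a call and 83 were not tested, and of all 18570 genes tested 9.33% were called higher and 4.04% lower. In KO 23 rose and none fell, 58 were tested without a call and 79 were not tested, with 8.95% of 19191 genes called higher and 2.52% lower. Without KO D0 872 the number in KO was 10, without KO D0 853 it was 13, and without KO D19 811 it was 31. DESeq2 called 39, and 8.46% of all genes in either direction. The largest rises in WT were of Igkv4-78 (0.0905 to 0.314 CPM at D0, 0.678 to 16.7 at D19, a log2 change of 5.07, SE 0.94, adjusted p = 0.0019), Igkv17-121 (4.88), Igkv8-21 (4.73) and Igkv3-7 (4.51). These 4 were picked by the size of their rise. Segments that passed the filter on low counts through D19 alone had to differ, in either genotype. Igkv4-78, with 2 to 10 counts per WT D0 library, was among them. In Igkv17-121 the WT D19 812 value of 1.38 CPM lay within the D0 range of 0.0883 to 1.69 CPM. Igkv7-33 was the segment that fell in WT, by 4.26 on the log2 scale (SE 1.41, adjusted p = 0.0315), from 24.5, 0.153, 0.452 and 0.941 CPM at D0 to 0.149 to 0.608 at D19. That fall rested on WT D0 851: without it the log2 fold change was -0.70 (adjusted p = 0.385), and the call was also lost without any of the 4 WT D19 libraries (adjusted p 0.053 to 0.0698).

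In KO the largest rise from D0 to D19 was of Igkv15-103, from 1.02, 0.291, 1.65 and 1.88 CPM to 7.86, 23.2, 249 and 9.37 CPM (a log2 change of 5.88, SE 1.29, adjusted p = 0.0134, edgeR). Each D19 library lay above each D0 library and 803 was the highest. Without KO D19 803 the log2 fold change was 3.46 (SE 0.61, adjusted p = 0.00645). Igkv3-5 went from 0.145 to 0.349 CPM at D0 to 2.10 to 4.50 CPM at D19, a log2 difference of 3.93 (SE 0.44, adjusted p = 0.000312, edgeR). It had a call in each of the 8 omissions of a library. With 4 to 13 counts per KO D0 library, Igkv3-5 was among the segments that passed the filter on low counts through D19 alone and had to differ. Igkv4-50 (4.29, adjusted p = 0.0471) and Igkv4-62 (4.03, adjusted p = 0.0405) were each called in 3 of the 8 omissions. The calls were lost at adjusted p of 0.0725 to 0.133 for Igkv4-50, without any of the 4 KO D0 libraries or KO D19 803, and of 0.0657 to 0.12 for Igkv4-62, without KO D0 853, 915 or 872 or KO D19 803 or 804. Igkv1-110 rose in WT (2.29, adjusted p = 0.00778) and was not called in KO (1.43, adjusted p = 0.302), while Igkv1-117 rose in both (2.05 and 2.08). Igkc was called in WT (1.92, adjusted p = 0.0133) and not in KO (1.30, adjusted p = 0.0745). Of the 16 B cell genes 16 rose in each genotype, among them Ms4a1, a B cell surface protein (4.58 in WT and 4.13 in KO). Of the 16 plasma cell genes 7 rose in WT and 5 in KO, among them Mzb1, a chaperone of antibody assembly (2.16 and 2.46).

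At D80 most of the tested segments stood above D0 in both genotypes. In WT 76 of 160 rose, none fell, 16 were tested without a call and 68 were not tested, where 7.07% of all 18419 genes were called higher and 3.25% lower. In KO 86 rose, none fell, 4 were tested without a call and 70 were not tested, where 13.4% of 19031 genes were called higher and 7.63% lower. Segments that passed the filter through D80 alone had to differ, so these counts are set against all 160. By both calls 73 segments rose in both genotypes, 3 in WT only and 13 in KO only. Without WT D80 581 the count of called segments in WT was 92. Of the pseudogenes 4 rose in WT and 7 in KO. Igkv1-110 went from 5.55 to 15.6 CPM at D0 to 204 to 936 CPM at D80 in WT (log2 fold change 5.15) and from 5.30 to 50.4 CPM to 147 to 391 CPM in KO (3.85), with no overlap in either. Igkv1-117 changed by 5.03 and 4.71.

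The largest rise at D80 in WT was of Igkv1-122, and mouse 542 was far above the other 3 mice. It had 0, 0.153, 0.0905 and 0.0314 CPM at D0 and 4.97, 7.97, 128 and 5.21 CPM at D80 in mice 581, 541, 542 and 555 (a log2 change of 9.06, SE 1.66, adjusted p = 0.00843, edgeR). Without WT D80 542 the log2 fold change was 6.48 (SE 0.60, adjusted p = 0.00244, edgeR). Igkv1-122 was followed by Igkv12-98 (7.499), Igkv2-112 (7.32, adjusted p = 0.0208) and Igkv3-7 (7.04). Igkv1-122 had 0 to 3 counts and Igkv12-98 had 0 to 6 counts per WT D0 library. Both passed the filter on low counts through D80 alone and had to differ, so their calls describe these libraries. Igkv2-112 spanned 0.371 to 87.6 CPM among the WT D80 colons and lost its call without any of the 4 WT D0 libraries (adjusted p 0.0521 to 0.075). In KO the largest rises were of Igkv14-126, Igkv3-10 (6.89), Igkv3-5 (6.57) and Igkv1-133 (6.51). Igkv14-126 had 2 counts over the 4 KO D0 libraries and 580 over the 4 KO D80 libraries. The ratio per total counts was 325, with an exact 95% counting interval of 89.6 to 2692. Counts were pooled over mice, so this interval covers counting error only and not the spread between mice. The segment passed the filter on low counts through D80 alone and had to differ. Among listed genes 15 of 16 B cell genes rose in WT and 16 in KO, and 9 and 10 of 16 plasma cell genes did. Of the 12 light chain constant, joining and lambda genes, 7 were tested in WT and 6 rose, and 11 were tested in KO and 10 rose. Of the 10 heavy chain constant and transport genes, 9 were tested and 8 rose in each genotype. Among those that rose were Igha (3.72 and 4.27) and Ighm (3.67 and 4.46).

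In tumors the segments stood far below D80 colon. In WT 76 of 160 were lower and none higher, 19 were tested without a call and 65 were not tested, where 13.5% of 19007 genes were called lower and 8% higher. In KO 86 were lower and none higher, 9 were tested without a call and 65 were not tested, where 16.4% of 19457 genes were called lower and 10.3% higher. In both genotypes 67 segments were lower, with 9 called in WT only and 19 in KO only. Segments that passed the filter on low counts through D80 colon alone had to differ, so these counts are set against all 160. Igkv1-110 held 11.5 to 52.8 CPM in WT tumors (log2 fold change -3.69) and 8.13 to 42.6 CPM in KO tumors (-3.23), and Igkv1-117 changed by -3.12 and -2.84. Both segments therefore stayed among those with most counts in tumors, where 1 of them led 5 of 8 libraries.

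The largest falls in WT tumors were of Igkv4-57-1 (-5.70), Igkv14-126 (-5.09), Igkv12-89 (-4.85) and Igkv2-112 (-4.70, adjusted p = 0.0435). Igkv4-57-1 stood at 399, 22.5, 19.6 and 20.6 CPM in WT D80 colons 581, 541, 542 and 555 and at 0.78 to 4.54 CPM in WT tumors, and without WT D80 581, which stands apart, its log2 fold change was -3.20 (adjusted p = 0.000821, edgeR). Igkv14-126 was highest in WT D80 555 (33.8 CPM against 1.01 to 6.57) and changed by -3.49 without that library (adjusted p = 0.0139). Igkv12-89 was highest in WT D80 541 (19.2 CPM) and changed by -2.94 without it (adjusted p = 0.0311). Igkv2-112 was called in 2 of 9 omissions, those of WT D80 581 and 555, and was lost in the other 7 (adjusted p 0.0509 to 0.101). In KO tumors Igkv8-16, Igkv14-130 and Igkv4-75 had 0 counts in all 3 libraries, at least 23.3-fold, 17.2-fold and 9.01-fold lower than the mean of KO D80 colon against a floor of 3 counts per library. Without KO D80 535, which held 4.90 CPM of Igkv8-16 and 3.63 CPM of Igkv14-130, the first 2 bounds were 12.9-fold and 9.49-fold. These 3 segments passed the filter on low counts through KO D80 colon alone, so their calls are a description of these libraries. Igkv3-4 changed by -4.71 (SE 0.76). Of the listed genes, 5 of 16 B cell genes were lower in WT tumors and 16 in KO tumors, 10 and 8 of 16 plasma cell genes, and Igkc by -2.65 and -2.41. None of these genes was called between KO and WT tumors or for the interaction of genotype with tumor against D80 colon. Tumor and colon also differed in other tissue: the summed CPM of 6 smooth muscle genes was 2087 to 4653 in D80 colon and 143 to 678 in tumors, all 6 were called lower in each genotype, and their part in the result was not tested. The 16 B cell genes summed to 71.4 to 201 CPM in D80 colon and 10.1 to 76.0 CPM in tumors, and 7 genes of lymphoid follicles and lymph node to 68.9 to 223 CPM and 23.9 to 103 CPM.

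The interaction of genotype with stage was tested directly. No segment was called for D19 against D0 (92 tested, 68 not), for D80 against D0 (100 tested, 60 not) or for tumor against D80 colon (101 tested, 59 not). Of all genes 0.0298% were called lower in KO at D19 and 0% otherwise. At a nominal p under 0.05 stood 12, 4 and 4 segments, where 8.15%, 7.84% and 11.7% of all genes tested did. DESeq2 called 1 segment at D19 and 0 at D80 and in tumors, where it called 0.471%, 0.0611% and 0% of all genes in either direction. The larger number of calls in WT at D19 and in KO at D80 was therefore not shown to be a difference between genotypes in any single segment.

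The mix of segments in a tumor was closest to that of the D80 colon with the same mouse number. Similarity was taken as the Morisita-Horn index of the segment shares, which is 1 for identical shares and 0 for none in common. In the 6 mice with both samples it was 0.899 for WT 541, 0.903 for WT 542, 0.882 for WT 555, 0.978 for KO 527, 0.644 for KO 543 and 0.949 for KO 544. Against the other 3 D80 colons of the same genotype the index was 0.752 to 0.865, 0.653 to 0.792, 0.628 to 0.807, 0.796 to 0.881, 0.502 to 0.579 and 0.761 to 0.809. In each of the 6 mice the own colon ranked 1 of 4, by the Bray-Curtis similarity as well. Pairs share libraries and are not independent, so no p-value is given.

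**Figure D5:**
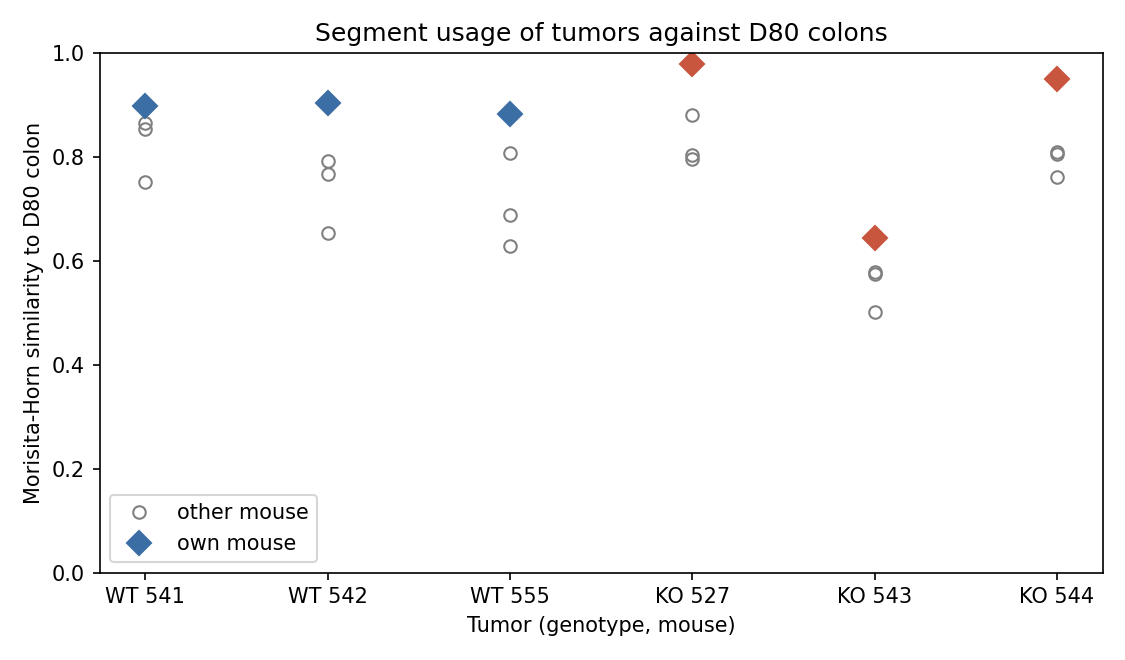
Morisita-Horn similarity (vertical axis, 0 to 1) of the Igkv shares of 6 tumors (horizontal axis) to D80 colons of the same genotype. Diamonds mark the colon of the same mouse, blue for WT and red for Dnase1l3-KO, and open circles the other 3 colons; in each tumor the diamond is the highest point, from 0.644 to 0.978.

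Single segments showed the same pairing. Igkv1-122, whose sequence is given above, held 7.499% of Igkv counts in WT tumor 542 (interval 7.17 to 7.84%) and 3.31% in D80 colon 542 (interval 3.21 to 3.41%), against a median of 0.101%. Its level was 49.0 CPM in that tumor and 0.026 to 5.30 CPM in the other 4 WT tumors. Igkv12-44 held 10.1% in WT tumor 555 and 6.13% in D80 colon 555. Igkv4-55 differed more in size, with 16.9% in KO tumor 543 and 2.92% in D80 colon 543 (interval 2.80 to 3.05%). That colon still held the highest Igkv4-55 share among the KO D80 colons. Mouse 543 had the lowest similarity of the 6.

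Among different mice the mix of segments was more alike at D80 than earlier, where fewer Igkv counts lay behind each library (2028 to 10636 at D0 and 67174 to 235794 at D80). The part of depth in this was not tested. The median index between libraries of a group was 0.461 in WT and 0.516 in KO at D0, 0.503 and 0.535 at D19, 0.797 and 0.816 at D80, and 0.743 and 0.552 in tumors. Between genotypes it was 0.510 at D0, 0.515 at D19 and 0.830 at D80, within the ranges found inside a genotype at the same stage. Pooled over both genotypes, the median within a genotype was 0.486 at D0, 0.535 at D19, 0.816 at D80 and 0.732 in tumors, and between genotypes it was 0.769 in tumors.

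Transcripts of the genes that join the segments stood at low levels. Rag1 and Rag2, which cut the locus to join the segments during B cell development, were at 0 in 25 and 31 of the 32 libraries, and Dntt, which adds bases at the joint, was at 0 in 10, among them each of the 8 D0 libraries. Dntt stood at 0.316 to 0.561 CPM in KO D19 libraries, where it was called higher than at D0. It stood at 0.223 to 0.528 CPM in KO D80 colon, above the 0 to 0.111 CPM of KO tumors (log2 fold change -3.12, adjusted p = 0.0122, edgeR). In both comparisons Dntt passed the filter on low counts through the higher group alone, so these calls describe these libraries. It had no call from D0 to D19 in WT, nor between KO and WT at D19.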

How the data were processed

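RNA was measured in 32 libraries of 8 groups, 2 genotypes at D0, D19 and D80 and in tumor. The deposited values are raw counts per gene: per the labels and the Methods, the authors ran FastQC 0.11.5 on single-end reads, mapped these to mm10 by STAR and obtained gene sums from Subread with GENCODE release M25. The strand setting and the treatment of reads with several matches are not given in the sources used here, and alignment was not repeated. Positions, exons and sequences came from GENCODE release M21 on GRCm38, in which all 160 segments matched by symbol.

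Groups came from the labels. Total counts ranged from 18951121 to 47623288, which sets the precision of low segments. Segments were tested together with all genes in edgeR 4.0.16 (R 4.3.3, quasi-likelihood test, TMM, filterByExpr), with only the libraries compared, and p was adjusted by the Benjamini-Hochberg method. A call needed more than a 2-fold change with an adjusted p below 0.05, or between tumors a nominal p below 0.01. CPM used TMM factors of all 32 libraries. Sums, the effective number and similarity were computed in Python 3.11.15 with no test. The scripts were tested on simulated data. P-values measure the spread between these samples, each from 1 mouse as far as the labels say.

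Named segments were the 10 with the largest mean share, those that led a library, and up to 4 called segments per direction with the largest fold change in each comparison. Igkc, Jchain, Igha, Ighm, Dnase1l3 and genes of the lists were named too. The members, gene lists and rules were chosen with earlier results of these data known. Alternatives were DESeq2 1.42.0, other filters and scalings, all libraries in 1 fit, blocks by label prefix or mouse, omission of the libraries that stand apart, and fits that each lacked 1 library. The following were chosen after seeing the data: the fits of paired mice without the block, the tumor comparisons without the libraries that stand apart, and similarity without them. Tumor and D80 colon with the same number in the labels were read as the same mouse, which is where the pairing comes from. Deviations from the group means correlated between the 2 samples of a mouse with r of 0.034 to 0.333 over 19205 genes and 0.361 to 0.689 over 97 segments, as a description.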

Additional observations from a re-analysis of the deposited data

Results flagged for a closer look

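In 105 groups of values, each a measure in 4 or 5 libraries, 16 had a library far from the others of its group. Of these 12 were shares of single segments and were high in 1 mouse. In KO D0 852, Igkv10-94 held 9.69% of Igkv counts (1.56 to 2.75% in the other KO D0 libraries) and Igkv4-55 held 10.3% (0.522 to 0.670%). In KO D0 872, Igkv8-30 held 15.5% (1.83 to 4.13%). At D19, Igkv12-44 held 21.9% in WT 812 (0.808 to 4.25%), Igkv6-15 held 4.43% in WT 805 (0.888 to 1.34%) and Igkv8-30 held 10.6% in KO 811 (0.898 to 1.53%).

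At D80, Igkv1-110 held 14.99% in WT 581 (6.09 to 7.502%), Igkv4-59 held 6.98% in KO 527 (2.46 to 2.77%) and Igkv10-94 held 10.8% in KO 535 (1.46 to 2.44%). In tumors, Igkv4-59 held 8.77% in WT 555 (2.90 to 3.68%), Igkv12-44 held 10.1% in WT 555 (1.40 to 3.48%) and Igkv10-94 held 3.31% in WT 541 (1.02 to 1.63%). WT D80 581 and KO D19 811 are among the libraries that stand apart in heavy chain and mitochondrial counts, and the part of this in their shares was not tested.

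The other 4 were measures over all segments. The Igkv counts per 100 Igkc counts were 42.2 in WT D0 920 (54.5 to 56.7 in the others), 98 segments had a count in KO D0 915 (87 to 88), the effective number was 30.1 in WT D19 812 (44.7 to 45.2), and the leading segment of WT D80 581 held 14.99% (7.75 to 8.66%).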

How the results depend on the processing

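The summed level (37 alternative values) and the effective number (24) moved by less than the spread between mice in each alternative. Differences within that spread changed sign when single libraries were left out: the KO to WT difference in log2 level ran from -0.12 to 0.54 at D0, -0.29 to 0.21 at D80 and -0.60 to 0.80 in tumors. The effective number ran from -1.34 to 10.3 at D0 and -4.78 to 6.42 in tumors for KO against WT, from -5.85 to 5.82 for D19 against D0 in KO, and from -10.9 to 0.293 for tumor against D80 in KO. Of 103 counts of called segments 86 stayed within 1.5 times. For KO against WT at D0 the count of 0 became 4 with no filter on low counts, 2 with DESeq2 and 1 when the label prefix was blocked, and at D19 it became 7 with DESeq2. In tumors the count of 1 became 3 with no filter, 0 with at least 10 counts in each library, 3 with all libraries in 1 fit, 4 with DESeq2 (0.651% of all genes in either direction), 2 with the prefix block and 2 without the libraries that stand apart. With at least 10 counts in each library, which tests fewer segments, D19 against D0 gave 8 calls in WT and 9 in KO, D80 against D0 gave 13 and 38, and tumor against D80 gave 50 in WT. DESeq2 gave 39 for D19 against D0 in KO and 1 for the interaction at D19.

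Leaving out each library in turn gave 1 to 3 calls between tumors (3 without WT tumor 541), 10 to 31 for D19 against D0 in KO (10 without KO D0 872) and 0 to 1 for the interaction at D19. With the mouse as a replicate block, in the paired mice only, tumor against D80 gave 81 calls in WT and 76 in KO, against 73 and 70 in the same mice without the block, and the block changed no other call count by over 1.5 times. The cause of these changes was not tested. Low D0 depth, with 2028 Igkv counts in the smallest library, limits what can be tested there.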
